A study of Homo sapiens with 6 samples.

Results

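The genes described are 42 genes of the basement membrane and of its receptors, taken from the count table by gene name. They comprise 10 laminin chains, the 3 Fraser complex genes FRAS1, FREM1 and FREM2, 2 nidogens, 2 heparan sulfate proteoglycans, 6 collagen IV chains, COL17A1, COL18A1, 16 integrin chains and DAG1. All 42 were among the 62703 genes counted, and 35 passed the filter on low counts, which left 17901 genes for testing. The samples were 6 libraries of poly(A) RNA from 22Rv1, an established human prostate cancer cell line that the study used as a model resistant from the outset to the antiandrogen enzalutamide. Cells were transfected for 3 days with 25 pmol of an siRNA pool that was either non-targeting (siCtrl, n = 3) or directed against MED12 (siMED12, n = 3), a Mediator subunit that activates the kinase of that coactivator complex. Both groups received the same lipid reagent and a medium change after 6 h, the knockdown was transient, and the 6 libraries hold this line only.

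Basement membranes are thin matrix sheets on which epithelial cells rest. Laminins, which are trimers of an alpha, a beta and a gamma chain, and collagen IV, which is a trimer of alpha chains, form their networks, and nidogens, perlecan (HSPG2) and agrin (AGRN) link these networks. Cells hold on to them through integrins, which are pairs of an alpha and a beta chain, and through dystroglycan (DAG1). In the prostate, the basement membrane surrounds the glands, and its contact with epithelial cells is altered when carcinoma invades.

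The libraries held 16136699 to 17012788 counts. MED12 itself was measured at 67.8, 77.7 and 72.6 CPM (counts relative to library size, scaled by TMM) in siCtrl and at 23.9, 15.0 and 30.1 CPM in siMED12, a log2 fold change of -1.66 (SE 0.23, edgeR adjusted p 0.0314). The share of mitochondrial counts ran from 4.43% to 10.1%, was lowest in both libraries of replicate 1 and highest in both of replicate 3. Same-numbered libraries of the 2 groups shared deviations from their group means, so each siMED12 library was also set against its siCtrl counterpart, by adding the number to the fit as a block. All 10 markers of prostate luminal epithelium were above 1 CPM, with a summed level of 3219 to 3401 CPM in siCtrl and at 2738 to 2922 CPM in siMED12. The summed level of 5 basal markers was 0.714 to 1.34 CPM in siCtrl and at 0.760 to 1.13 CPM in siMED12, with KRT5 and KRT14 at 0. Endothelial markers reached at most 0.122 CPM and immune markers at most 1.43 CPM, and the summed level of 7 fibroblast and smooth muscle markers was 29.3 to 41.2 CPM in siCtrl and at 29.6 to 45.3 CPM in siMED12. The part of that level in the results for the matrix genes was not tested. In bulk RNA, fewer cells expressing a gene and less RNA of it per cell cannot be told apart.

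FREM2 and LAMA3, a matrix protein of the Fraser complex and a laminin alpha chain, rose after siMED12 in the test without the block, by 2.73-fold and 2.13-fold. No member fell in that test or by DESeq2 without the block (0 each), and 1, LAMC3, was lower at an unadjusted p below 0.05. These 2 of 35 members are 5.71%, beside 0.151% of all genes tested that rose and 0.413% that fell (edgeR, adjusted p below 0.05). At an unadjusted p below 0.05 (edgeR) there were 11 members that were higher (10 without ITGB6). In both directions together, 12 of 35 members had such a p, beside 2789 of 17901 genes tested. DESeq2 without the block called 4 as higher (FREM2, LAMA3, ITGA3 and ITGA5), and its share over all genes is not given here. With the number as a block, 13 of 35 members (37.1%) rose, beside 17.1% of all genes tested, and 3 of 35 (8.57%) fell, beside 16.2%. Members were chosen with earlier results of these data known, so a share above that of all genes is not independent evidence. The 13 that rose were LAMA3, LAMA5, LAMB1, LAMB2, FRAS1, FREM2, COL4A5, ITGA1, ITGA3, ITGA5, ITGAV, ITGB1 and ITGB8, and the 3 that fell were LAMC1, LAMC3 and ITGB5. Counted differently, the 2 groups of libraries did not overlap for 10 members that were higher in siMED12 (28.6%, beside 11.2% of all genes tested) and for 2 that were lower (5.71%, beside 10.9%). The 10 include ITGB6, which passed the filter on low counts only through the siMED12 libraries, and without it they are 9 of 34 (26.5%).

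The members differed widely in level, and the changes were found mostly among the well expressed ones. At a mean of at least 100 CPM there were 10 members, of which 8 changed with the block, and between 10 and 100 CPM 7 of 11 changed. Below 10 CPM only LAMC3, of 14 members tested, changed with the block. Calls with the block also depended on level over all genes. They were 17.1% higher and 16.2% lower over all genes tested, and 22.9% and 23.2% at 10 CPM or more. The pattern by level is therefore not particular to the members. Among the 21 members with a mean of at least 10 CPM, 13 rose (61.9%, beside 22.9% of the genes tested at that level) and 2 fell (9.52%, beside 23.2%). The median log2 fold change without the block was 0.34 over the 35 members (0.31 without ITGB6) and 0.02 over all genes tested, with 30 of 35 members and 9377 of 17901 genes above 0. In the pairs with replicate number 1, 2 and 3 the median of the members was 0.30, 0.24 and 0.39.

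**Figure D1:**
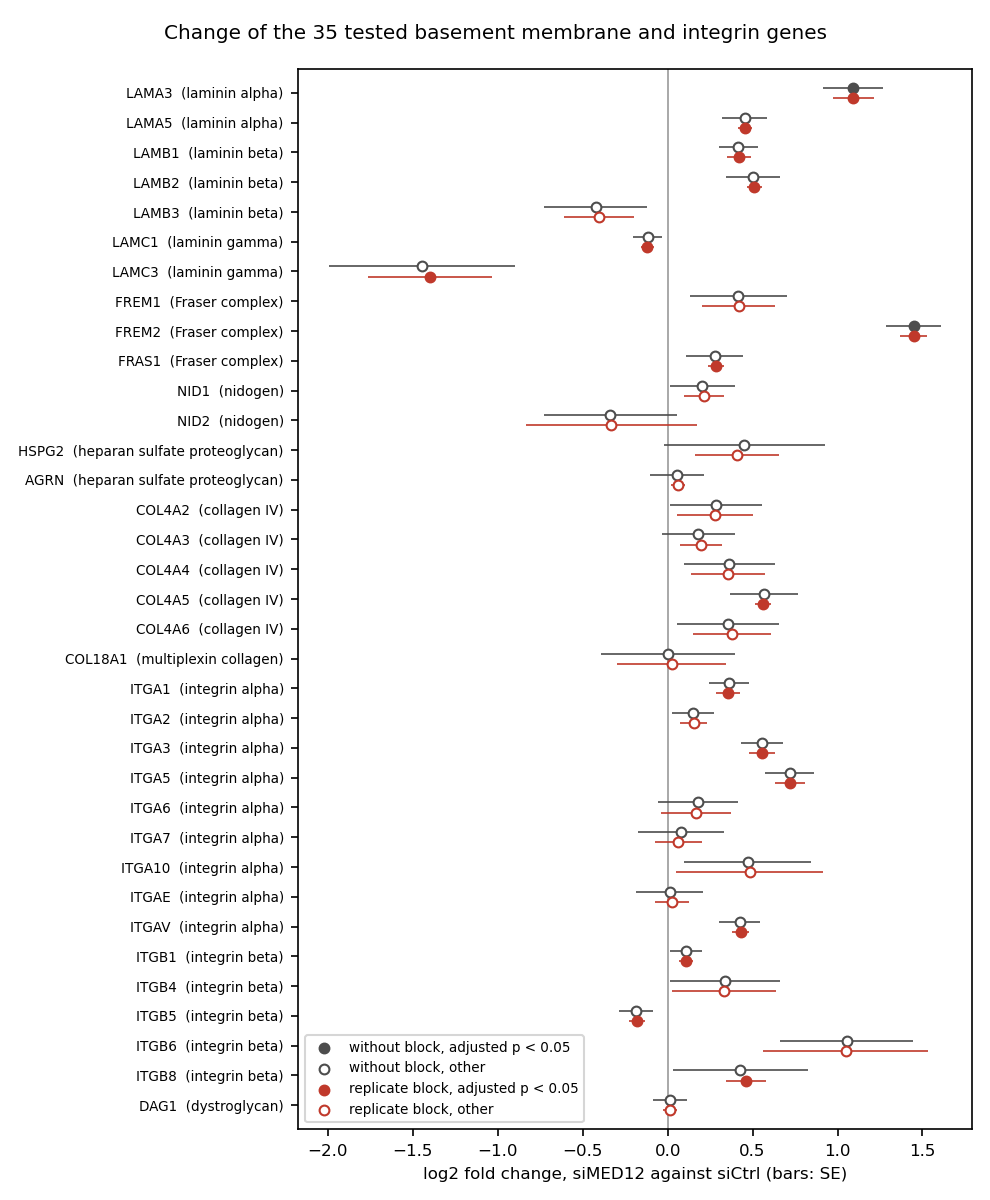
Log2 fold change of siMED12 against siCtrl for the 35 members tested, grouped by family, with bars showing the SE; grey points come from the fit without the block and red points from the fit with that block, and filled points have an adjusted p below 0.05. Only FREM2 and LAMA3 are filled in grey, 16 members are filled in red, and both fits place each gene at nearly the same value.

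**Figure D2:**
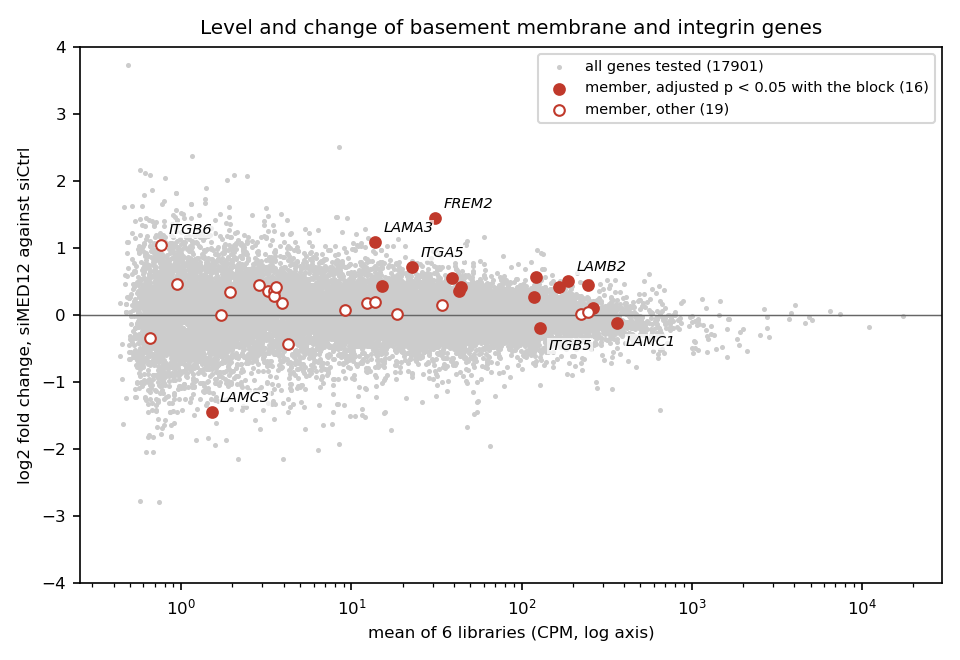
Mean level over the 6 libraries (CPM, log axis) against log2 fold change without the block; grey points are the 17901 genes tested, filled red points are the 16 members called with the block and open red points are the other 19. FREM2 and LAMA3 stand above the mass of genes of similar level, and the filled points lie mostly at 10 CPM or more.

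FREM2 (ENSG00000150893.11; GRCh38, chr13:38687077-38887131, plus strand) encodes a large membrane-anchored protein that forms the Fraser complex with FRAS1 and FREM1 beneath the epithelium. It was measured at 16.9, 19.1 and 14.1 CPM in siCtrl replicates 1, 2 and 3 and at 44.3, 52.7 and 39.7 CPM in siMED12. Every siMED12 library was therefore more than 2 times as high as any siCtrl library. The mean went from 16.7 ± 2.52 to 45.6 ± 6.62 CPM (SD, n = 3), a log2 fold change of 1.45 (SE 0.16, edgeR adjusted p 0.0271). The rise was 162%, 176% and 182% in the 3 pairs, and the blocked fit gave the same log2 fold change with a smaller error (1.45, SE 0.08, adjusted p 2.04e-17).

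LAMA3 (ENSG00000053747.17; GRCh38, chr18:23689453-23956222, plus strand) encodes the alpha chain of the laminin that anchors epithelia through hemidesmosomes. It was measured at 9.70, 9.30 and 7.38 CPM in siCtrl and at 21.4, 17.8 and 17.03 CPM in siMED12. The groups were well apart, with a mean of 8.79 ± 1.24 against 18.7 ± 2.36 CPM (SD, n = 3). The log2 fold change was 1.09 (SE 0.18, edgeR adjusted p 0.045; with the block SE 0.12, adjusted p 1.33e-09), and the pairs rose by 121%, 91.2% and 131%. Without the block, the call of LAMA3 was lost whichever library was left out (adjusted p 0.0717 to 0.232) and with scaling by library size only (adjusted p 0.0558). FREM2 passed only when siCtrl replicate 3 or siMED12 replicate 3 was the library left out (adjusted p 0.0333 to 0.167 over the 6 fits), while both genes passed in every blocked fit.

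The 250 bases before the start site are shown for these genes because they are the members that rose without the block. The sequences are those of RefSeq (GRCh38.p14), 5′ to 3′ on the plus strand, and capitals mark matches to the AP-1 motif TGANTCA, which was searched on both strands.
FREM2, chr13:38686827-38687076: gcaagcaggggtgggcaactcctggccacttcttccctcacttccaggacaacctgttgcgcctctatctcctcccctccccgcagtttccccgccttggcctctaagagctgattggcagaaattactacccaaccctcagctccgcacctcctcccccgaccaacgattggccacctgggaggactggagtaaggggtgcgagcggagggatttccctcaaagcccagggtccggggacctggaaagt
LAMA3, chr18:23872770-23873019: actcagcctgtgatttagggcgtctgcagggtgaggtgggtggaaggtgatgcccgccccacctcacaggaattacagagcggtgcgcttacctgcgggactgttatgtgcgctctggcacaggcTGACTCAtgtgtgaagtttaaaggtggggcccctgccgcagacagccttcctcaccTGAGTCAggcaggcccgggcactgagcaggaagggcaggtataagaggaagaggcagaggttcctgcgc
The FREM2 window ends at the annotated start of the gene, has a GC content of 61.2% and holds no match. The LAMA3 window belongs to the start of a shorter transcript, 183567 bases inside the gene, has a GC content of 60.4% and holds 2 matches, which begin 125 and 69 bases before that start. The counts are sums over the gene and do not tell which LAMA3 transcript rose. RefSeq windows were matched for 34 of 42 members, 30 of the 35 tested and 12 of the 13 that rose with the block. The AP-1 motif was found in 6.74% of all 27305 windows and in 3 of the 30 of tested members (FREM1, LAMA3 and LAMB3). The GC box GGGCGG was found in 41.6% of all windows and in 19 of 30, including 7 of the 12 that rose. The E-box CACGTG was present in 6.33% of all windows and in 1 of 30 (ITGA6). The letters AGAACA, only part of an androgen receptor site, were in 12.7% and in 4 of 30 (FREM1, ITGA6, ITGA10 and ITGB6). None of the 12 that rose held AGAACA, and full androgen receptor sites were not searched for.

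Among the other laminin chains, the widely expressed alpha and beta chains were higher in siMED12, and the gamma chains were lower. LAMA5, the main alpha chain of mature epithelial basement membranes, was measured at 179, 208 and 237 CPM in siCtrl and at 255, 275 and 324 CPM in siMED12. The groups did not overlap, and the pairs rose by 42.5%, 32.3% and 36.8%. Without the block the log2 fold change of 0.45 (SE 0.13) did not pass (edgeR adjusted p 0.154), while with the block it did (0.46, SE 0.04, adjusted p 1.72e-11).

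LAMB2, a beta chain of basement membranes in muscle, kidney and epithelia, was at 132, 144 and 190 CPM in siCtrl and at 192, 212 and 256 CPM in siMED12. The lowest siMED12 library lay just above the highest siCtrl library, and the pairs differed by 45.5%, 47.7% and 34.6%. Its log2 fold change was 0.50 (SE 0.16, edgeR adjusted p 0.181) without and 0.51 (SE 0.04, adjusted p 4.19e-12) with the block. LAMB1, the beta chain of embryonic and many adult laminins, was at 33.4, 41.7 and 37.9 CPM in siCtrl and at 50.9, 48.8 and 51.2 CPM in siMED12. Here the siMED12 libraries were nearly equal and all higher than siCtrl, with a log2 fold change of 0.42 (SE 0.11, edgeR adjusted p 0.142; with the block SE 0.07, adjusted p 1.18e-05). LAMB3, which pairs with LAMA3 in the hemidesmosomal laminin, was low and overlapped between groups, at 3.63, 4.24 and 6.71 CPM in siCtrl and at 2.85, 4.44 and 3.57 CPM in siMED12. It did not pass either test (log2 fold change -0.42, SE 0.30, edgeR adjusted p 0.574; with the block 0.135). The rise of LAMA3 was thus not accompanied by a detected rise of LAMB3.

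LAMC1, the gamma chain of most laminins and the laminin gene with the highest counts, was at 369, 402 and 372 CPM in siCtrl and at 329, 363 and 361 CPM in siMED12. The groups were separate but close, and the pairs differed by -10.7%, -9.76% and -3.00%. The log2 fold change was -0.12 (SE 0.09, edgeR adjusted p 0.574) without and -0.12 (SE 0.04, adjusted p 0.0166) with the block. This call was lost in the blocked fit when scaled by library size only (adjusted p 0.0927) and without replicate number 1 (adjusted p 0.0914). LAMC3, a gamma chain of restricted expression, was near the filter, at 1.13, 1.71 and 3.78 CPM in siCtrl and at 0.416, 0.877 and 1.13 CPM in siMED12. The highest siMED12 library reached almost the lowest siCtrl library, but each pair was lower, by -63.2%, -48.6% and -70.2%. Its log2 fold change was -1.45 (SE 0.55, edgeR adjusted p 0.254) without and -1.40 (SE 0.37, adjusted p 0.00244) with the block, and the blocked call was lost without replicate number 3 (adjusted p 0.116).

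To compare chains with each other, CPM were divided by the length of the main transcript in kilobases (CPM per kb). On this scale LAMA5 made up 95.2% ± 1.24 of the laminin alpha chains in siCtrl and 93.1% ± 1.37 in siMED12, and LAMA3 the remainder but for traces, at 4.42% ± 1.13 and 6.68% ± 1.49 (SD, n = 3). The length used for LAMA3 was 10651 bases. A shorter transcript exists and the counts do not tell which was present, so these 2 shares may understate LAMA3. LAMB2 made up 77.4% ± 2.51 and 79.6% ± 2.14 of the beta chains, and LAMC1 99.4% and 99.8% of the gamma chains. The same chain thus had the largest share of its class in both groups. The shares of LAMA3, LAMB2 and LAMC1 were higher and that of LAMA5 lower in 3 of 3 pairs. An exact permutation test over libraries (two-sided, unpaired) cannot go below 0.1 with 3 against 3, so no share could pass it (15 shares over all classes, adjusted p 0.333 to 0.8).

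The classes themselves were summed after the values of the chains had been seen. The laminin alpha chains summed to 16.7, 19.1 and 21.5 CPM per kb in siCtrl and to 24.4, 25.8 and 30.1 in siMED12. The beta chains summed to 29.98, 33.7 and 41.7 in siCtrl and to 43.4, 47.0 and 54.8 in siMED12. The gamma chains summed to 46.7, 50.9 and 47.4 in siCtrl and to 41.6, 45.9 and 45.7 in siMED12. The summed alpha and beta chains were thus higher and the gamma chains lower in every siMED12 library than in any siCtrl library. For the gamma chains the gap was narrow (45.9 in siMED12 against 46.7 in siCtrl) and was seen under TMM scaling. LAMC1, nearly all of this class, lost its blocked edgeR call with scaling by library size only (adjusted p 0.0927). The ratio of beta to gamma chains went from 0.642, 0.661 and 0.879 to 1.04, 1.02 and 1.20, and that of alpha to gamma chains from 0.357, 0.375 and 0.453 to 0.586, 0.562 and 0.659 (exact permutation p 0.1 for each sum and ratio, the smallest possible). The ratio of alpha to beta chains was 0.546 ± 0.0269 and 0.553 ± 0.00729 (exact permutation p 0.9).

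**Figure D3:**
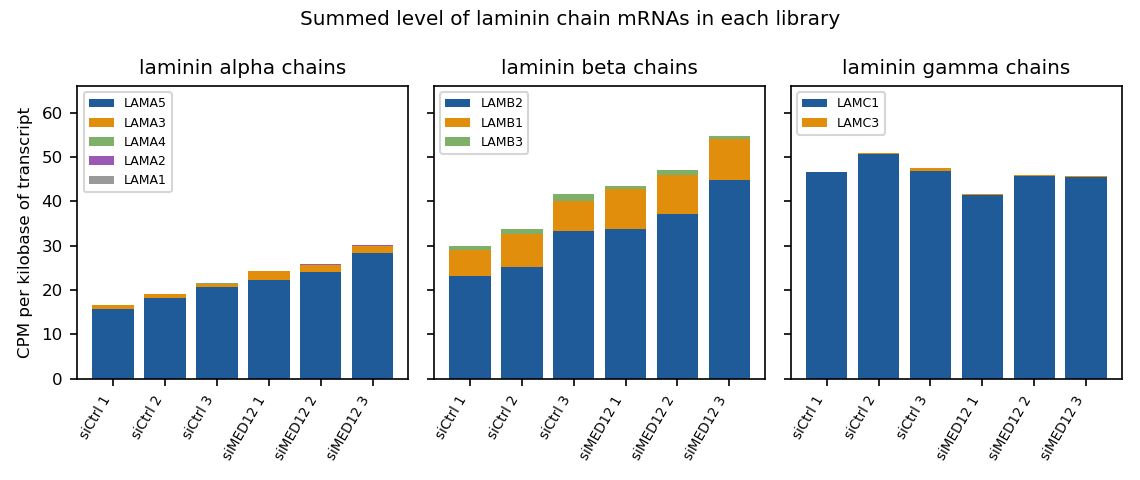
Stacked bars of the laminin alpha, beta and gamma chains in each library, as CPM per kb of the main transcript of each chain; each bar is 1 library (replicates have no order), and colours are chains. The bars of the alpha and beta classes are taller in every siMED12 library than in any siCtrl library. Those of the gamma class are shorter, with a narrow gap between the groups, and LAMA5, LAMB2 and LAMC1 fill most of their classes.

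FRAS1, the founding member of the Fraser complex, was far more abundant than its partners. It was at 114, 124 and 83.1 CPM in siCtrl and at 134, 147 and 109 CPM in siMED12. The groups overlapped because siCtrl and siMED12 of replicate 3 were both low, while each pair rose, by 17.6%, 17.9% and 31.2%. The log2 fold change was 0.28 (SE 0.17, edgeR adjusted p 0.485; with the block SE 0.05, adjusted p 1.45e-05). FREM1, the remaining partner, was at 2.32, 3.86 and 3.11 CPM in siCtrl and at 3.15, 4.85 and 4.38 CPM in siMED12 and did not pass with or without the block (adjusted p 0.134 and 0.555, edgeR). Per length, FRAS1 was at 6.75 CPM per kb and FREM2 at 1.04 in siCtrl, against 8.19 and 2.83 in siMED12. FREM2 thus came closer to FRAS1 in level, although FRAS1 remained the higher. GRIP1, an adaptor that binds the tails of Fraser complex proteins, was named after its values were seen. It was higher in each siMED12 library (10.9, 10.1 and 9.26 CPM) than in siCtrl (6.01, 7.08 and 6.28 CPM), with a log2 fold change of 0.64 that passed by edgeR with the block (adjusted p 0.000606) but not without it (0.143), where DESeq2 gave 0.0494.

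**Figure D4:**
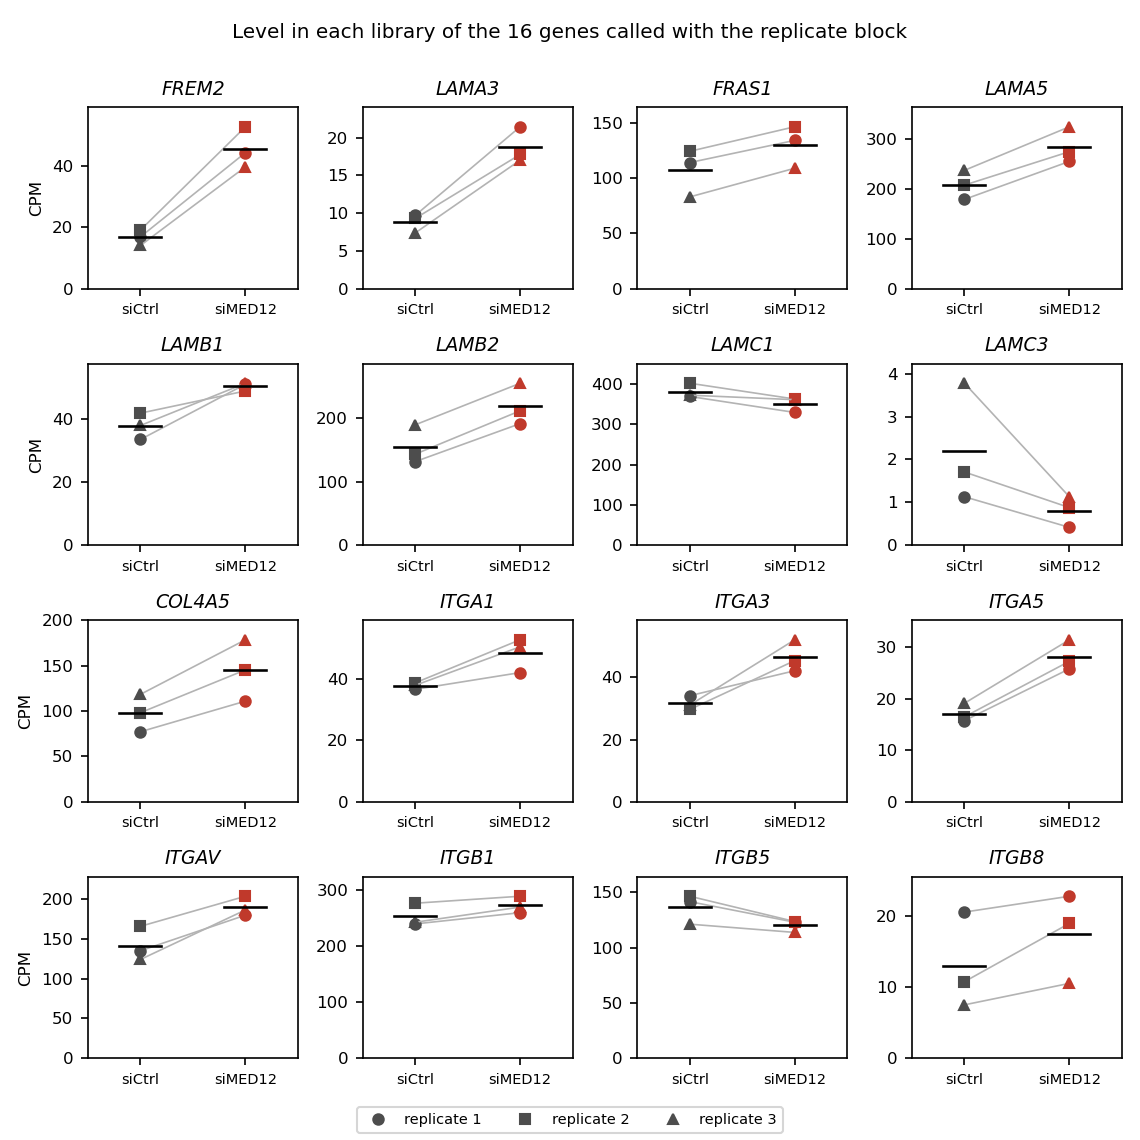
Level (CPM, each axis starting at 0) of the 16 members called with the block, in each library; marker shapes are replicate numbers, grey lines join the same number in both groups, and black bars are group means (n = 3). All 3 lines go up for the 13 members that rose and down for LAMC1, LAMC3 and ITGB5, and the panels of FRAS1, COL4A5 and ITGB8 show how far the replicate numbers themselves differ.

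The linkers of the laminin and collagen networks did not pass the test with or without the block. AGRN was the most abundant of them and was nearly equal in the groups, at 196, 238 and 284 CPM in siCtrl and at 210, 250 and 287 CPM in siMED12 (log2 fold change 0.05, SE 0.16, edgeR adjusted p 0.921; with the block 0.296, and 0.0456 with the block and scaling by library size only). NID1 was at 9.81 to 15.2 CPM and had a log2 fold change of 0.20 (SE 0.19). HSPG2 was at 1.55 to 5.70 CPM and had a log2 fold change of 0.45 (SE 0.47), with the 2 libraries of replicate 3 the highest of their groups. NID2 was at the limit of the filter, at 0.526 to 0.886 CPM, and 30.7% of its exonic bases are shared with a gene on the opposite strand. None of these 3 passed with or without the block (edgeR adjusted p 0.173 or above).

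Of the collagen IV chains, COL4A5, which is mutated in Alport syndrome, carried most of the expression. It was at 77.2, 98.2 and 118 CPM in siCtrl and at 111, 145 and 179 CPM in siMED12. The groups overlapped, since the siCtrl library of replicate 3 was higher than the siMED12 library of replicate 1, but the pairs rose by a similar amount (43.7%, 48.1% and 50.9%). The log2 fold change was 0.57 (SE 0.20, edgeR adjusted p 0.223) without and 0.56 (SE 0.05, adjusted p 3.58e-12) with the block. Its share of the collagen IV chains, per length, was 84.9% ± 0.598 in siCtrl and 87.3% ± 1.26 in siMED12, with no overlap (exact permutation p 0.1, adjusted p 0.333). COL4A6 starts 341 bases from COL4A5 and is read in the other direction, yet was at only 1.84, 3.73 and 2.93 CPM in siCtrl and at 3.45, 3.98 and 3.44 CPM in siMED12. Its log2 fold change of 0.36 (SE 0.30) did not pass (edgeR adjusted p 0.642; with the block 0.218).

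COL4A3 and COL4A4, which form a network with COL4A5 in kidney and lung, were also read from neighbouring starts, 171 bases apart. They were at 9.16 to 14.9 CPM and at 2.59 to 4.88 CPM, with log2 fold changes of 0.18 (SE 0.22) and 0.36 (SE 0.27). COL4A2, a chain of the ubiquitous collagen IV network, was at 2.62 to 4.76 CPM, with a log2 fold change of 0.28 (SE 0.27). Its partner COL4A1 had at most 1 count in any library. COL18A1, the source of endostatin, was at 1.08 to 2.44 CPM and did not differ detectably (log2 fold change 0.00, SE 0.40). None of these passed with or without the block (edgeR adjusted p 0.217 or above), although all 5 collagen IV chains tested had a fold change above 0 (median 0.36).

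The integrin alpha chains tested all had a log2 fold change above 0 (9 of 9, median 0.36), and 4 of them rose with the block. ITGA5, the alpha chain of the fibronectin receptor, was at 15.8, 16.5 and 19.1 CPM in siCtrl and at 25.8, 27.3 and 31.5 CPM in siMED12. The pairs rose almost equally, by 63.9%, 65.4% and 64.5%. Its log2 fold change of 0.72 (SE 0.14) missed the threshold without the block (edgeR adjusted p 0.0694) and passed with it (SE 0.09, adjusted p 2.84e-08) and by the DESeq2 Wald test without the block (adjusted p 0.00166).

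ITGA3, a laminin receptor chain of epithelia, was at 34.1, 29.7 and 31.1 CPM in siCtrl and at 42.1, 45.4 and 52.1 CPM in siMED12. The groups did not overlap, and the log2 fold change was 0.56 (SE 0.12, edgeR adjusted p 0.0874; with the block SE 0.08, adjusted p 2.79e-07; DESeq2 without the block 0.0088). ITGAV, the alpha chain of receptors for RGD-containing ligands such as vitronectin, was at 135, 166 and 124 CPM in siCtrl and at 180, 204 and 186 CPM in siMED12. It was the most abundant alpha chain in both groups and rose in each pair, by 33.1%, 22.8% and 50.1% (log2 fold change 0.42, SE 0.12, edgeR adjusted p 0.153; with the block SE 0.05, adjusted p 2.59e-09). ITGA1, a collagen receptor chain, was at 36.5, 38.6 and 37.9 CPM in siCtrl and at 42.0, 52.7 and 50.4 CPM in siMED12. The groups did not overlap, and the log2 fold change was 0.36 (SE 0.12, edgeR adjusted p 0.192; with the block SE 0.07, adjusted p 9.85e-05). Of its exonic bases 13.2% are shared with other genes, PELO among them, so part of its counts is uncertain.

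The other 5 alpha chains tested did not pass with or without the block (edgeR adjusted p 0.133 or above). ITGA2, the second collagen receptor chain, was at 28.3 to 37.5 CPM with a log2 fold change of 0.15 (SE 0.13). ITGAE, which binds E-cadherin on epithelial cells when present on lymphocytes, was at 13.9 to 22.6 CPM and did not differ detectably (0.01, SE 0.20). The laminin receptor chains ITGA6, at 3.25 to 4.74 CPM, and ITGA7, at 7.01 to 12.4 CPM, had log2 fold changes of 0.18 (SE 0.24) and 0.08 (SE 0.25). The collagen receptor chain ITGA10 was at 0.633 to 1.31 CPM (0.47, SE 0.37). Per length, ITGAV made up 43.5% ± 5.18 of the alpha chains in siCtrl and 44.7% ± 2.39 in siMED12, and ITGA5 8.74% ± 0.965 and 11.0% ± 0.717. The share of ITGA5 did not overlap between the groups (exact permutation p 0.1, adjusted p 0.333). The alpha chains together, summed after their values had been seen, were at 44.6, 48.2 and 45.7 CPM per kb in siCtrl and at 56.5, 61.8 and 62.9 in siMED12 (exact permutation p 0.1).

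Of the 5 integrin beta chains tested, 4 had a log2 fold change above 0 (median 0.34; 3 of 4 and 0.22 without ITGB6), and with the block 2 rose and 1 fell. ITGB1, the common partner of most alpha chains, was at 240, 277 and 243 CPM in siCtrl and at 260, 290 and 270 CPM in siMED12. The groups overlapped and each pair was higher by a small amount, 8.35%, 4.50% and 11.2%. Its log2 fold change of 0.11 (SE 0.09, edgeR adjusted p 0.648) passed with the block (SE 0.04, adjusted p 0.0323), but fell to 0.01 (adjusted p 0.831) when GC content and length were corrected for, and also did not pass without any 1 replicate number (adjusted p 0.067 to 0.225) or by DESeq2 with the block (0.11). ITGB5, a partner of ITGAV in the vitronectin receptor, was at 141, 146 and 121 CPM in siCtrl and at 123, 123 and 114 CPM in siMED12. It was lower in each pair, by -13.1%, -15.6% and -6.15%, with a log2 fold change of -0.18 (SE 0.10, edgeR adjusted p 0.437; with the block SE 0.05, adjusted p 0.00282). ITGAV and ITGB5 thus moved in opposite directions with the block.

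ITGB8, another partner of ITGAV that binds latent TGF-beta, differed strongly between replicates, at 20.5, 10.8 and 7.50 CPM in siCtrl and at 22.8, 18.9 and 10.5 CPM in siMED12. The pairs rose by 10.8%, 76.2% and 40.3%, and the log2 fold change was 0.43 (SE 0.39, edgeR adjusted p 0.677; with the block 0.46, SE 0.12, adjusted p 0.00231). The blocked call was lost without replicate number 2 (adjusted p 0.177). ITGB6, a further partner of ITGAV, was at 0.535, 0.443 and 0.488 CPM in siCtrl and at 1.19, 0.760 and 1.13 CPM in siMED12. It passed the filter only through the siMED12 libraries, and its log2 fold change of 1.05 (SE 0.39) did not pass the test (edgeR adjusted p 0.246; with the block 0.0952). ITGB4, the hemidesmosomal partner of ITGA6, was at 1.49 to 2.61 CPM (0.34, SE 0.32, edgeR adjusted p 0.691; with the block 0.441). Per length, ITGB1 made up 67.6% ± 2.27 of the beta chains in siCtrl and 71.2% ± 1.73 in siMED12, and ITGB5 30.6% ± 1.58 and 26.3% ± 1.04. The share of ITGB5 was lower in every siMED12 library than in any siCtrl library (exact permutation p 0.1, adjusted p 0.333). The summed beta chains were at 100.4 ± 7.68 and 102.7 ± 4.47 CPM per kb (exact permutation p 0.6).

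DAG1, the receptor that binds laminin and agrin through its sugar chains, was at 215, 246 and 211 CPM in siCtrl and at 228, 240 and 209 CPM in siMED12. The groups were nearly equal (log2 fold change 0.01, SE 0.10, edgeR adjusted p 0.971; with the block 0.842). The 7 members that did not pass the filter had at most 9 counts in any library. These were LAMA1, LAMA2 and LAMA4, which are laminin alpha chains of embryo, muscle and vessels, COL4A1, the hemidesmosomal collagen COL17A1, and the integrin chains ITGA9 and ITGB3. A change of these genes was not detectable at this depth.

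Related genes were examined as lists and did not show a common direction, with counts given for the blocked fit, in which 17.1% of all genes tested rose and 16.2% fell, and no set test made. Of 20 tested genes of the dystroglycan complex and its glycosylation, 7 rose and 0 fell, and of 27 of focal adhesion and integrin signalling, 9 rose and 3 fell. Of 15 matrix proteases and inhibitors, 6 rose and 1 fell, whereas of 19 genes for the synthesis of collagens and laminins 3 rose and 7 fell. Of 12 hemidesmosome genes and integrin partners 2 rose and 2 fell, of 9 other matrix proteins 1 rose and 4 fell, and of 2 Fraser complex partners 1 rose. Of 7 other laminin, collagen and integrin genes 0 changed by edgeR or DESeq2, with 2 lower at an unadjusted p below 0.05. By DESeq2 with the block fewer genes rose in these lists, 2 of the dystroglycan complex, 4 of focal adhesion, 3 of the proteases and inhibitors and 2 of the synthesis genes. The share of all genes called by DESeq2 with the block is not given here, so these counts cannot be set against it. In the dystroglycan list 0 fell by either tool, and 1 was lower at an unadjusted p below 0.05. The medians of these lists without the block ranged from -0.38 for other matrix proteins to 0.30 for the Fraser complex partners.

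Genes of these lists also passed without the block. UTRN, a relative of dystrophin that binds dystroglycan, was at 20.9, 22.1 and 20.7 CPM in siCtrl and at 42.0, 46.0 and 37.4 CPM in siMED12 (log2 fold change 0.98, SE 0.12, edgeR adjusted p 0.0297). NPNT, the integrin ligand nephronectin, was at 74.6, 89.1 and 107 CPM in siCtrl and at 148, 170 and 195 CPM in siMED12 (0.92, SE 0.15, edgeR adjusted p 0.0495). Both were higher in every siMED12 library than in any siCtrl library. In contrast, FN1, the ligand of the ITGA5 receptor, fell from 80.4, 84.0 and 70.3 to 38.7, 30.4 and 26.4 CPM (-1.30, SE 0.15, edgeR adjusted p 0.0274). SMOC1, a secreted basement membrane protein, fell from 20.6, 14.4 and 15.97 to 5.35, 4.97 and 7.89 CPM (-1.49, SE 0.24, edgeR adjusted p 0.0445).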

How the data were processed

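RNA of 22Rv1 cells was sequenced in 6 libraries, whose groups and numbers come from the labels. The authors captured poly(A) RNA, prepared strand-specific libraries and counted reads per gene in R with Rsubread against GRCh38 and a Gencode annotation. The deposited values are raw counts for 62703 genes. The version of Rsubread, its handling of reads matching several places and whether it counted by strand are not given in the sources used here, so counts of overlapping genes are uncertain. The deposited log2 CPM values could be recomputed from these counts (prior count 2, largest difference 4.96e-09).

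Counts were tested with edgeR 4.0.16 in R 4.3.3 (expression filter, TMM, quasi-likelihood F-test, two-sided, Benjamini-Hochberg adjustment over 17901 genes, threshold 0.05). The SE is the fold change (log2) over the square root of F. The study names edgeR and no blocking term, although a legend calls a heatmap of these cells corrected for batch without saying which, so the authors may have used one. The labels number the libraries 1 to 3 in both groups, and deviations from the group means correlated across genes at 0.532, 0.373 and 0.643 for the same number and at -0.460 to -0.0233 for different numbers. Libraries were on this basis treated as pairs, and blocked values are given where they change a call. The study describes its experiments in general as biological replicates, but nothing says for these libraries that they came from separate cultures, so p-values measure the spread between libraries, which may be partly technical. Replicates differed by a chi-square of 10.3 to 40.7 per degree of freedom, so none was a duplicate.

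CPM are counts scaled by TMM, and CPM per kb use the MANE Select transcript of Gencode release 44 (GRCh38). Shares were calculated for chains with a mean share of at least 5%. Members and lists were chosen with earlier results of these data known. Members called with or without the block are given with all libraries, other members with their levels and fold changes, and other lists as counts and genes called without the block, of which some results are not reported here. The alternatives were DESeq2 1.42.0 (size factors or Wald test), library size only, limma-trend 3.58.1, other filters and thresholds, a GC content and length correction with the block (loess, span 0.5) and leaving out libraries. The edgeR setting legacy = FALSE, the blocked DESeq2 test and exon lengths were added after the data had been seen. The fits were tested on simulated data.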

Additional observations from a re-analysis of the deposited data

How the results depend on the processing

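Counts of called members depended on the block more than on any other choice tried. Shares over all genes are given here only for the edgeR fits with and without the block. Moves of the counts under the other settings can therefore not be read as particular to the members. With the replicate block, 13 members were higher and 3 lower, beside 2 and 0 without it; the blocked counts were 13 and 3 with DESeq2 size factors, 15 and 2 with library size only, 12 and 3 with the GC content and length correction, 13 and 3 with edgeR's legacy = FALSE and 12 and 3 by the DESeq2 Wald test. Leaving out 1 replicate number gave 11 to 12 higher and 2 to 4 lower members (12 and 2, 11 and 4, and 12 and 2 without numbers 1, 2 and 3). Without the block, 4 members were higher by the DESeq2 Wald test, 6 with no filter beyond 1 count, 1 with library size only, 0 at an adjusted p below 0.01 (edgeR), and 0 to 1 when 1 library was left out. MED12 had a log2 fold change of -1.73 to -1.45 in the 4 of 6 such fits in which it no longer passed, and of -1.90 in the fit farthest from 0. The median log2 fold change of the integrin alpha chains was 0.40 with library size only, with and without the block, 0.24 with the block and GC content and length correction, 0.33 with no filter and 0.25 at a mean of at least 1 CPM. That of the beta chains was 0.22 with no filter and 0.21 at a mean of at least 1 CPM. In the blocked fits without replicate 1, 2 or 3 the medians of the beta chains were 0.0894, 0.26 and 0.40, those of the alpha chains 0.41 without 1 and 0.28 without 2, and that of collagen IV 0.45 without 2. With 1 library left out and no block, the median ranged from 0.22 to 0.35 over all members, from 0.26 to 0.60 for the Fraser complex, from 0.19 to 0.46 for collagen IV, from 0.27 to 0.43 for the alpha chains and from 0.15 to 0.34 for the beta chains. Directions turned for 7 genes and 3 shares, none of which passed in the fit with or without the block; AGRN passed with the block and library size only (0.0998, adjusted p 0.0456), as did ITGA2 (0.19, adjusted p 0.0489), and LAMB3 was lower with the block without replicate 2 (-0.68, adjusted p 0.0244). COL18A1 was at -0.01 with DESeq2 size factors (-0.00802), legacy = FALSE (-0.00563) and the DESeq2 Wald test (-0.0074), at -0.0179 at 1 CPM or more and at -0.12 with the block without replicate 2. ITGAE was at -0.00913 at 1 CPM or more and at -0.0944 with the block without replicate 2, DAG1 at -0.0044 with that filter, at -0.0201 with the blocked GC content and length correction and at -0.0399 with the block without replicate 1, and ITGA7 and COL4A2 at -0.011 and -0.00794 with the block without replicate 3. With 1 library left out, log2 fold changes ranged from -0.17 to 0.82 for HSPG2, -0.0921 to 0.19 for AGRN, -0.27 to 0.35 for COL18A1, -0.17 to 0.24 for ITGA7, -0.16 to 0.17 for ITGAE and -0.0558 to 0.0859 for DAG1, and differences of shares from -2.29 to 0.65 percentage points for LAMB1, -0.42 to 0.0926 for ITGA1 and -1.29 to 3.88 for ITGAV. The cause was not tested for any of these. Of 767 values of single genes under the alternatives, 603 kept direction and side of the threshold, 126 passed only under the alternative, 11 passed only in the original fit and 27 turned. Of the 16 blocked calls, 12 held in all 5 blocked alternatives and without each of the 3 replicate numbers; LAMC1, LAMC3, ITGB1 and ITGB8 did not. With 3 libraries a group, exact tests of shares and sums cannot go below 0.1, and members below 10 CPM had SEs up to 0.55.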
